A study of Mus musculus with 16 samples.

Results

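Npm1 and 7 other genes of the nucleolus, Npm3, Ncl, Fbl, Nop56, Nop58, Dkc1 and Nolc1, were followed through mouse myeloid sarcomas and leukaemic marrow. They were taken by symbol, and the 8 rows were found among the 23999 gene symbols of the deposited count table. Myeloid sarcomas, tumours of leukaemic cells outside the marrow, were labelled NPM1cA/SMC3+/- in 4 mice, with 2 libraries each from mouse 948 and mouse 2721, and came from mice 948, 1267, 1268_1270 and 2721. The sarcoma of mouse 841 was labelled NPM1cA with no SMC3 allele and is called SMC3 wild type here. Whole bone marrow came from 9 NPM1cA/SMC3+/- mice, and mice 1267 and 2721 gave both tissues. NPM1cA, a mutant NPM1, was thus shared by all 3 groups, so nothing here compares cells with and without it. The labels state neither age, strain, the way the mutant Npm1 was introduced nor the altered part of Smc3. The label 1268_1270 may name 2 pooled mice and was counted as 1. The labels number the 2 libraries of mouse 948 and of mouse 2721 as replicates and do not say whether they are separate tumours or parts of 1.

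The nucleolus is where ribosomal RNA is transcribed, cut, modified and joined to ribosomal proteins. Small nucleolar RNAs guide the modifications inside protein complexes of which there are 2 main classes, box C/D complexes that methylate and H/ACA complexes that form pseudouridine. Nucleophosmin, the product of Npm1, is an abundant nucleolar chaperone, and the NPM1c mutations of acute myeloid leukaemia move it to the cytoplasm. A count per gene symbol cannot show this relocation, nor can it tell reads of the mutant and the normal Npm1 allele apart.

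The promoters are shown for genes whose levels correlated across 6 of the 9 marrows, described further below. Entries were found in the RefSeq table for 6 of the 8 genes, not for Npm1 and Fbl. Each line gives the 150 bases before the annotated start, 5′ to 3′ on the gene's strand, on GRCm38.p6, a later build than that of the counts. Capitals mark GC boxes (GGGCGG) and ETS cores (CCGGAA), on either strand.
Nop58 promoter, chr1:59684856-59685005, plus strand: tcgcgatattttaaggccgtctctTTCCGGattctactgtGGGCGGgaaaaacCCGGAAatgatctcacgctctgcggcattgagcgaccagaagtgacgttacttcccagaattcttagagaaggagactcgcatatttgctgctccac
Nolc1 promoter, chr19:46075697-46075846, plus strand: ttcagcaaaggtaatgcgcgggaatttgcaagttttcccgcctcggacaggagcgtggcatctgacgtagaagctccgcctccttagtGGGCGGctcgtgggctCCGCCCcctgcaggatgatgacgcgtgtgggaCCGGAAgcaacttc
Ncl promoter, chr1:86359456-86359605, minus strand: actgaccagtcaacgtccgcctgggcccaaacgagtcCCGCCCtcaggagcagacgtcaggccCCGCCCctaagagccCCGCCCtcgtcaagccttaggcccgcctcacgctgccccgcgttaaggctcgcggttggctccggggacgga
Dkc1 promoter, chrX:75095704-75095853, plus strand: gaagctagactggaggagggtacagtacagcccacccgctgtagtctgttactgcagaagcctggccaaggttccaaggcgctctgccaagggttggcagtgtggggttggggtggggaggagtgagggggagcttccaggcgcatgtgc
In the 250 bases before the start, GC boxes stood in 5 of the 6 promoters, against 32.7% of 32851 annotated promoters, and ETS cores in 3 of 6, against 12.03%. The CCAAT box (CCAAT) stood in 1 of 6, against 33.8%. The E-box CACGTG, the sequence bound by MYC and MAX, stood in 0 of 6, against 6.02%. These letters are a description of the windows. The Dkc1 line, whose gene followed Nop58 closely across marrow, held none of the 4 motifs.

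Levels are given as CPM, counts relative to TMM-adjusted library totals, with sarcoma libraries of a mouse summed, which gave 14 samples. Totals were 12072482 to 33605464 counts per library in SMC3+/- sarcomas, 9797201 in the SMC3 wild type sarcoma and 12395041 to 39197660 in marrow. In marrow 737, 779 and 782, the median deviation of transcripts over 6 kb from the median library was -2.24 to -2.03 log2 units. In sarcoma library 1 of mouse 948 it was -0.60, with 0.98 for transcripts under 1500 bases. These 4, set apart in earlier work on these data, are called libraries low in long transcripts. Marrow 1267 was not among them but was as low as the last, at -0.64, with 0.49 for transcripts under 1500 bases. Some results over the 6 other marrows, though not the correlations with Npm1, are therefore also given without it. Sarcoma 1268_1270 held 670 CPM of 12 summed pan-leukocyte genes, against 6149 to 10649 CPM in the 3 other SMC3+/- sarcomas and 7529 to 14717 CPM in marrow. Its 7 adipocyte genes summed to 41154 CPM, against 185 to 572 CPM in the 3 other SMC3+/- sarcomas and 1.505 to 21.0 CPM in marrow. In these bulk samples fewer leukaemic cells and less RNA per cell cannot be told apart. Smc3 itself had 63.6 to 217 CPM in SMC3+/- sarcomas, against 143 CPM in the SMC3 wild type sarcoma.

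Per kilobase of annotated transcript, Npm1 was the most abundant of the 8 genes by median in each group, and Nolc1 the least. The median of Npm1 was 288 CPM per kb in SMC3+/- sarcomas, 420 in the SMC3 wild type sarcoma and 196 in marrow. Nolc1 stood at 22.2 in SMC3+/- sarcomas, 18.4 in the SMC3 wild type sarcoma and 23.3 in marrow. Between them in SMC3+/- sarcomas came Dkc1 at 163, Nop58 at 83.3, Npm3 at 79.1, Ncl at 77.4, Nop56 at 43.9 and Fbl at 35.9 CPM per kb. In marrow the order was Npm3 at 66.1, Ncl at 63.1, Nop58 at 53.7, Fbl at 44.8, Dkc1 at 43.2 and Nop56 at 38.1 CPM per kb. The ranges of neighbours in these orders overlapped, at the ends as well as between them. Ncl is placed by an annotated transcript of 8202 bases with 2121 coding bases. Per coding kilobase its median was 299 in SMC3+/- sarcomas and 244 in marrow, next to 538 and 365 for Npm1, so its place depends on the length used.

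**Figure D1:**
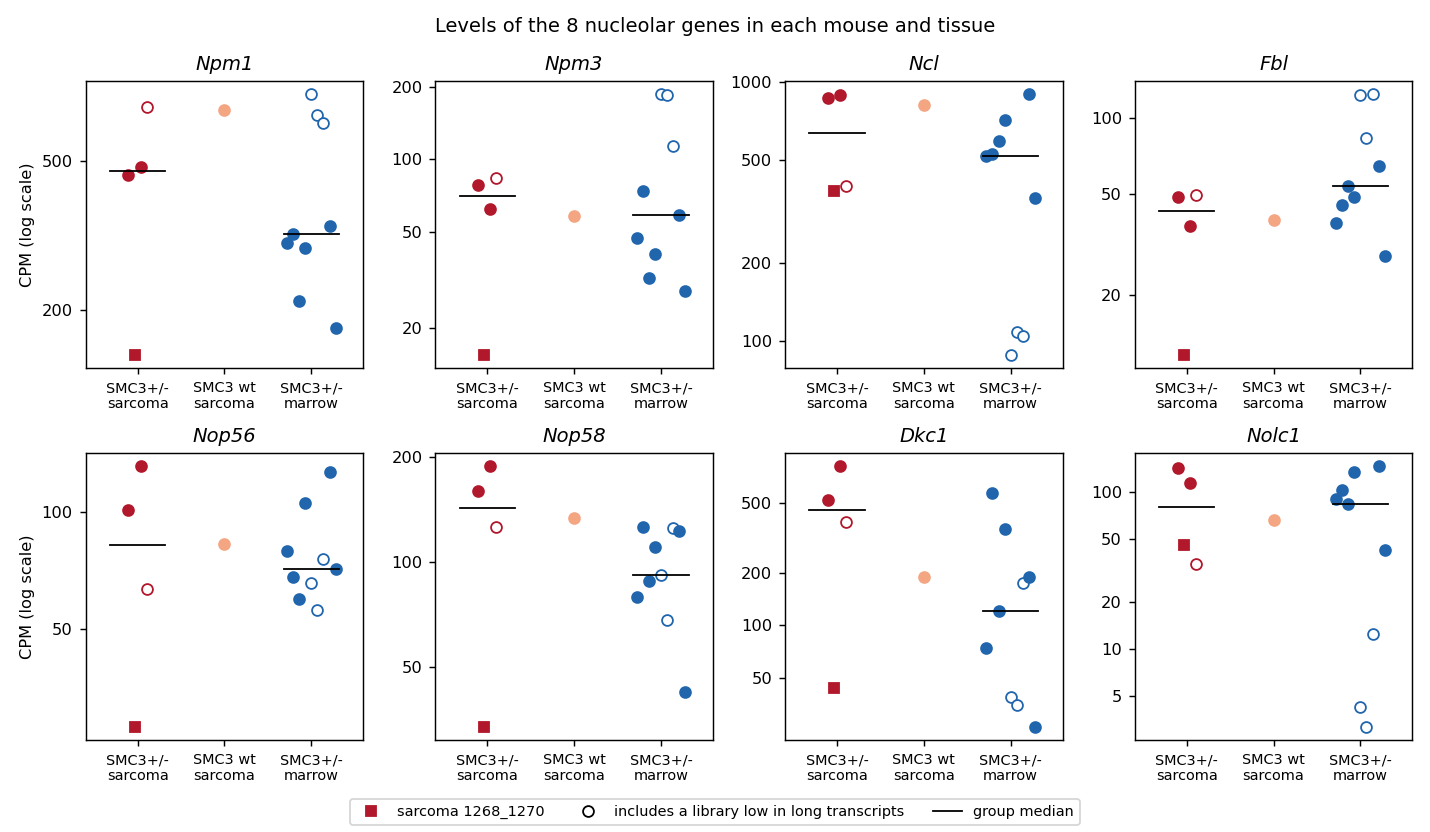
CPM (log axis) of each gene in SMC3+/- sarcoma, SMC3 wild type sarcoma and SMC3+/- marrow, 1 point per mouse and tissue. Open points hold a library low in long transcripts, squares are sarcoma 1268_1270 and lines are group medians. Npm1 and Npm3 are high, and Ncl and Nolc1 low, in the 3 open marrow points.

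None of the 8 genes was called different between sarcoma and marrow of SMC3+/- mice. With edgeR's quasi-likelihood test and an adjusted p under 0.05, 0 of 8 passed, against 4.55% of all 14730 genes tested (4.49% higher and 0.0543% lower in sarcoma), and 1 of 8 had an unadjusted p under 0.05, against 13.8% of all genes. The median log2 fold change was 0.06 over the 8 genes and 0.07 over all genes tested. Over the 6149 tested genes that averaged at least 5 log2 CPM it was -0.10. For each of the 8 genes the sarcoma and marrow values overlapped, and the share of all genes that overlapped was not computed. Over all genes, 662 were called higher and 8 lower, against 170 and 0 without sarcoma 1268_1270, 300 and 3 when the libraries low in long transcripts were dropped, 165 and 1 when marrow 1267 was dropped with them, and 107 and 23 with the mouse as a block, each with 0 of the 8 genes. When libraries were scaled to their pan-leukocyte genes, Ncl, Nop58 and Dkc1 were called higher in sarcoma, 3 of 8 against 60.8% of all genes. That scaling put the median of all genes at 2.18 log2 units, and of the 8 genes only Ncl, at 2.22, stood above it. It divides by a sum that was 670 CPM in sarcoma 1268_1270, against 6149 to 10649 CPM in the other SMC3+/- sarcomas. No fit with pan-leukocyte scaling left that sample out.

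**Figure D2:**
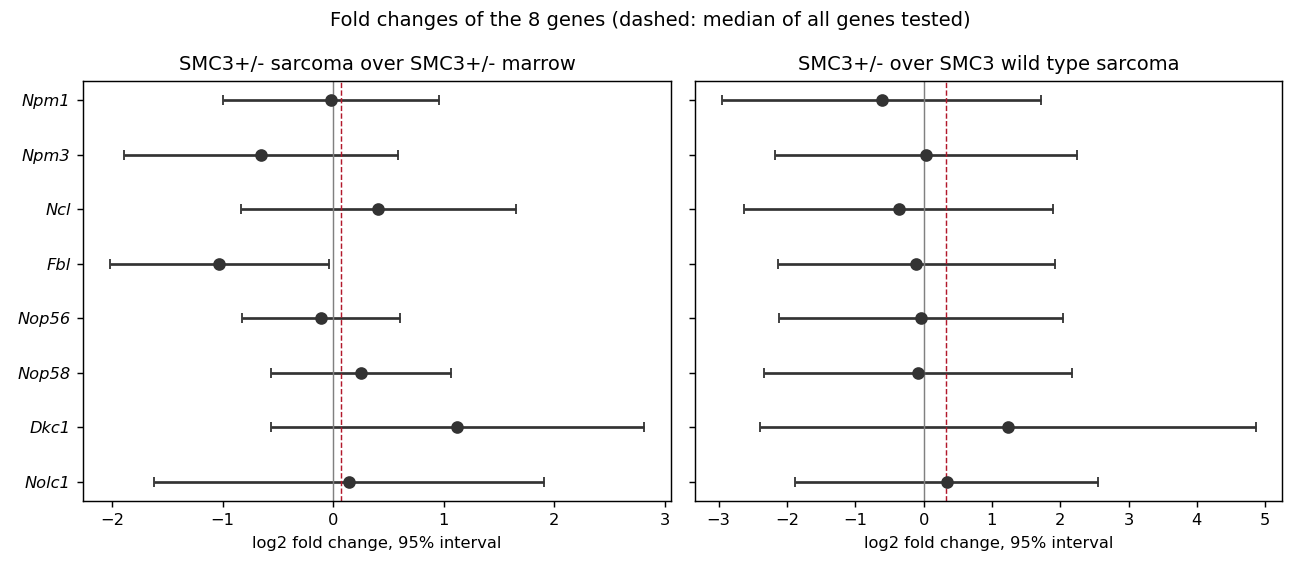
Log2 fold changes (points) with 95% intervals (bars) of the 8 genes, for SMC3+/- sarcoma over SMC3+/- marrow on the left and SMC3+/- over SMC3 wild type sarcoma on the right. Dashed lines are the medians of all genes tested, 0.07 and 0.33. Only the interval of Fbl on the left leaves out 0, before adjustment.

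Npm1 had 701, 459, 151 and 483 CPM in the sarcomas of mice 948, 1267, 1268_1270 and 2721. In the 9 SMC3+/- marrows it ranged from 179 through a median of 320 to 758 CPM. The 3 highest marrows, at 633 to 758 CPM, were the 3 low in long transcripts, and the 6 others stayed at 334 CPM or less. The sarcoma minus marrow log2 fold change was -0.02 (95% interval -0.996 to 0.96, adjusted p = 0.998, edgeR quasi-likelihood test). The sign was not settled, since leaving out the libraries low in long transcripts gave 0.18 and leaving out sarcoma 1268_1270 as well gave 0.42. The lowest sarcoma, at 151 CPM, was 1268_1270, the sample poor in leukocyte genes. With the mouse as a block, where only mice 1267 and 2721 inform the difference between tissues, the value was 0.55.

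Npm3, which encodes a nucleophosmin relative that binds NPM1, had 83.9, 78.1, 15.4 and 62.3 CPM in the same 4 sarcomas. Marrow ranged from 28.5 through 58.7 to 186 CPM, again with the 3 marrows low in long transcripts on top. The log2 fold change was -0.65 (95% interval -1.90 to 0.59, adjusted p = 0.787, edgeR). The third family member, the oocyte gene Npm2, had at most 0.76 CPM in a sarcoma and 1.405 CPM in a marrow. An Npm3 pseudogene row, Npm3-ps1, stayed at or below 2.48 CPM, so few reads were assigned to it. The counting of reads shared between Npm1 and its processed copies is not described by the submitters' notes.

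The ratio of both nucleophosmins, which needs no scaling, averaged higher in sarcoma than in marrow. The log2 ratio of Npm1 to Npm3 counts was 3.06, 2.55, 3.29 and 2.95 in the sarcomas of mice 948, 1267, 1268_1270 and 2721, and 2.97 ± 0.31 on average (SD, n = 4). In marrow it averaged 2.43 ± 0.35 (SD, n = 9), from 1.85 to 2.86. The difference of 0.54 had p = 0.0196 in a two-sided exact permutation test and 0.0490 after adjustment over the 5 ratios compared. This test takes all 13 samples as independent. When tissues were swapped only within mice 1267 and 2721 and permuted among the other mice, the adjusted p was 0.0347 (exact permutation, 144 arrangements). The groups overlapped, and the call was lost when the libraries low in long transcripts were left out (difference 0.65, adjusted p = 0.167, exact permutation). Leaving out 1 sample at a time lost it for 11 of 13 samples, with differences of 0.43 to 0.67 in the same direction. It was lost without both samples of mouse 2721 (0.57, adjusted p = 0.121) and held without both of mouse 1267 (0.63, adjusted p = 0.0303, exact permutation). Npm1, at 1633 annotated bases, and Npm3, at 888, differ in length, and the part of transcript length in this ratio was not tested.

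Ncl encodes nucleolin, an RNA-binding protein of rRNA transcription and processing. It had 397, 873, 380 and 890 CPM in the sarcomas of mice 948, 1267, 1268_1270 and 2721. In marrow it ranged from 88.0 through 517 to 900 CPM, and the values fell in 2 separate sets. Marrow 737, 779 and 782 had 88.0, 109 and 104 CPM, and the 6 other marrows 356 to 900 CPM. The log2 fold change was 0.41 (95% interval -0.83 to 1.65, adjusted p = 0.915, edgeR). The log2 ratio of Npm1 to Ncl was 2.599 to 3.11 in those 3 marrows and between -1.49 and -0.72 in the 6 others. Its sarcoma minus marrow difference was -0.76 over all samples and 0.09 without the libraries low in long transcripts (adjusted p = 0.622 and 0.667, exact permutation).

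The box C/D proteins were represented by Fbl, encoding the methyltransferase fibrillarin, and by Nop56 and Nop58, which encode the paired scaffold proteins of the complex. Fbl had 49.4, 48.7, 11.6 and 37.3 CPM in the sarcomas of mice 948, 1267, 1268_1270 and 2721. Marrow ranged from 28.4 through 53.6 to 124 CPM. The log2 fold change was -1.03 (SE 0.46, 95% interval -2.02 to -0.04, adjusted p = 0.332, edgeR). Its interval was the only one of the 8 to leave out 0, and it did not pass the adjustment.

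Nop58 had 126, 160, 33.7 and 188 CPM in the same sarcomas, against 42.7 through 91.9 to 126 CPM in marrow. The values of 3 of 4 sarcomas lay above the highest marrow, that of mouse 948 only narrowly, at 125.7 against 125.6 CPM. Sarcoma 1268_1270 lay below the lowest marrow. The sample of mouse 948 sums library 1, low in long transcripts, at 192 CPM and library 2 at 44.1 CPM. The share of all genes with as many sarcomas above the highest marrow was not computed. The log2 fold change was 0.25 (95% interval -0.57 to 1.07, adjusted p = 0.927, edgeR). Nop56 had 63.6, 101, 27.9 and 132 CPM in sarcoma and 56.1 through 71.5 to 127 CPM in marrow, with a log2 fold change of -0.11 (95% interval -0.82 to 0.61, adjusted p = 0.980, edgeR). Nop56 was the steadiest of the 8 genes across the 9 marrows, with an SD of 0.38 log2 units, and 15.0% of 5353 genes of at least 5 log2 CPM had a lower one. Over the 6 marrows outside the set low in long transcripts its SD was 0.41, with 0.37 for Npm1 and 0.41 for Fbl.

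Within the box C/D complex the ratio of Fbl to Nop58 averaged lower in sarcoma than in marrow. The log2 ratio was -1.35, -1.71, -1.54 and -2.33 in the sarcomas of mice 948, 1267, 1268_1270 and 2721, and -1.73 ± 0.43 on average (SD, n = 4). It averaged -0.58 ± 0.67 in marrow (SD, n = 9), from -1.48 to 0.42, and -1.76 in the SMC3 wild type sarcoma. The difference of -1.15 had p = 0.0056 and an adjusted p = 0.0280 over 5 ratios (two-sided exact permutation), and 1 marrow, that of mouse 1267, lay within the sarcoma range. Without the libraries low in long transcripts the difference was -0.78 (adjusted p = 0.0476, exact permutation). Without sarcoma 1268_1270 as well it was -0.86 and the groups did not overlap. There p = 0.0238 is the smallest that 3 against 6 samples allow, and its adjusted p = 0.119 (exact permutation) missed the threshold. With marrow 1267 dropped in place of sarcoma 1268_1270 it was -0.88, where p = 0.0159 is likewise the smallest for 4 against 5 samples, with an adjusted p = 0.0794 (exact permutation). Swapping tissues only within mice 1267 and 2721 and permuting among the others gave an adjusted p = 0.0347 over all samples (exact permutation). Its unadjusted p = 0.0139 is again the smallest that those arrangements allow. The call was lost when sarcoma 1268_1270 alone (difference -1.22) or the sarcoma of mouse 2721 (-0.95) was left out, each with an adjusted p = 0.0909 (exact permutation), and held without any other single sample. Without both samples of mouse 2721 the difference was -0.97 (adjusted p = 0.121, exact permutation). The ratio was lower in sarcoma in both mice with both tissues, at -1.71 against -1.48 in mouse 1267 and -2.33 against -0.72 in mouse 2721. For Nop56 against Nop58, the difference of -0.36 was within the spread (adjusted p = 0.317, exact permutation).

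Dkc1, which encodes dyskerin, the pseudouridine synthase of H/ACA complexes and a component of telomerase, varied widely between mice. It had 390, 523, 43.7 and 816 CPM in the sarcomas of mice 948, 1267, 1268_1270 and 2721. Marrow values were 26.0 CPM in mouse 949, 35.1 in 779, 38.9 in 737, 74.1 in 1103, 121 in 2721, 175 in 782, 189 in 919, 356 in 3332 and 574 in 1267. The highest marrow was thus 22.05-fold above the lowest, and 3 of 4 sarcomas lay above 8 of 9 marrows. The log2 fold change of 1.13 (95% interval -0.56 to 2.81, adjusted p = 0.673, edgeR) was within that spread. Over the 9 marrows its SD was 1.55 log2 units, against 2.16 for Nolc1. Over the 6 marrows outside the set low in long transcripts the SD of Dkc1 was 1.61, and 99.3% of the 5353 genes had a lower SD, with a median of 0.44. The SD of the 7 other genes there was 0.37 to 0.64. Without marrow 1267, the highest for Dkc1, the SD of Dkc1 over 5 marrows was 1.43, and 99.2% of the genes had a lower one.

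Nolc1 encodes a nucleolar phosphoprotein that chaperones small nucleolar ribonucleoproteins. It had 34.8, 142, 45.7 and 115 CPM in the sarcomas of mice 948, 1267, 1268_1270 and 2721. Marrow 737, 779 and 782 had 4.25, 3.15 and 12.4 CPM, and the 6 others 42.6 to 147 CPM. The log2 fold change was 0.14 (95% interval -1.62 to 1.91, adjusted p = 0.992, edgeR) and turned to -0.35 without the libraries low in long transcripts. The Dkc1 to Nolc1 ratio did not differ beyond its spread between tissues (difference 0.45, adjusted p = 0.660, exact permutation).

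In the 3 marrows low in long transcripts the shortest of the 8 genes stood high, but the longer ones did not fall in order of annotated length. Npm3, Fbl and Npm1, of 888 to 1633 bases, stood 0.80 to 1.73 log2 units above their median library. Nop58 and Nop56, of 1713 and 1877 bases, stood between -0.74 and 0.18. Nolc1, of 3634 bases, stood at -4.52 to -2.52 and Ncl, of 8202 bases, at -2.64 to -2.34. Genes of similar length gave a partial match. Ncl lay near the median of 618 genes within 20% of its annotated length, which was -2.30 to -2.12, but lower than 88.1% to 89.2% of 1589 genes of similar coding length. Nolc1 lay below 91.6% to 98.4% of 2201 genes of similar length, whose medians were -0.19 to -0.13. Nop58 lay below 58.4% to 91.5% and Nop56 below 66.7% to 85.1% of their genes of similar length. Dkc1, of 2804 bases, lay below 92.1% and 95.1% of its 2159 genes of similar length in marrow 737 and 779 and near their median in 782. What else set these libraries apart was not tested.

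**Figure D3:**
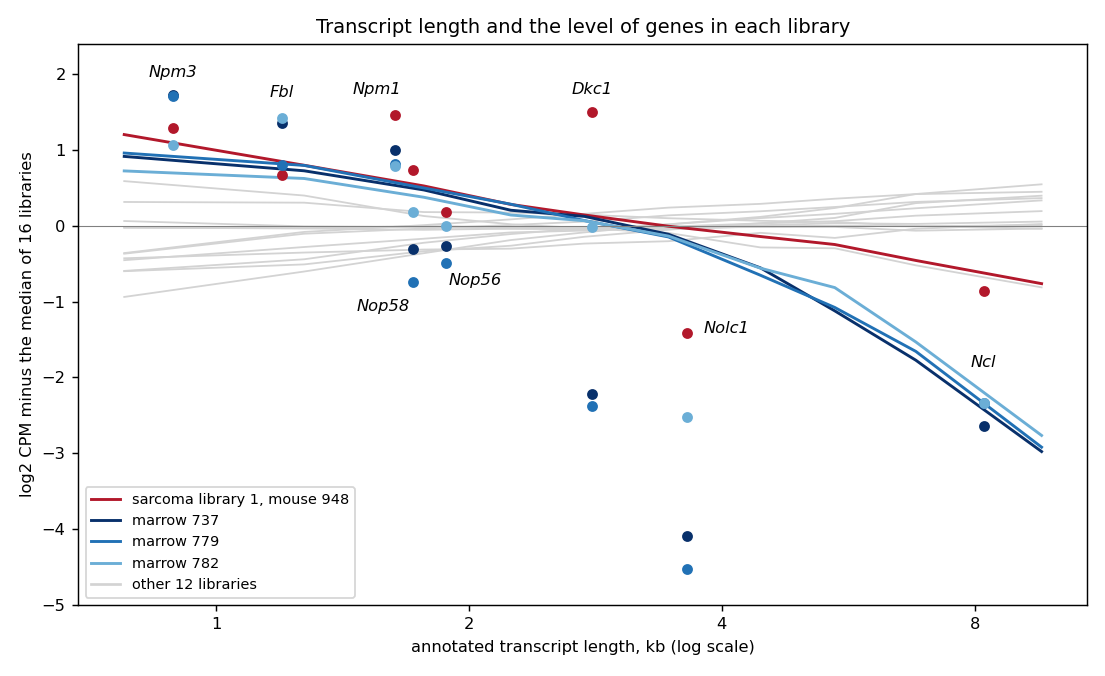
Log2 CPM minus the median of the 16 libraries against annotated transcript length (log axis). Lines are medians over genes in bins of length for each library, and points are the 8 genes in the 4 libraries low in long transcripts. Nolc1 lies below the lines in all 4, at -1.41 in sarcoma library 1 of mouse 948 and at -4.10, -4.52 and -2.52 in marrow 737, 779 and 782.

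Mice 1267 and 2721 allow sarcoma and marrow of the same animal to be set side by side, with no test over 2 mice. In each mouse 7 of the 8 genes were higher in sarcoma. The median log2 difference of 5353 genes was also above 0, at 0.16 in mouse 1267 and 0.24 in mouse 2721. The share of those genes that were higher in sarcoma was not computed. Transcripts over 6 kb stood at -0.64 log2 units in marrow 1267, as given above. Npm1 had 459 CPM in sarcoma and 320 CPM in marrow of mouse 1267, and 483 CPM and 211 CPM in those of mouse 2721. The log2 differences were 0.52 and 1.20 for Npm1, 0.72 and 0.59 for Ncl, 0.57 and 1.14 for Nop56, 0.35 and 1.09 for Nop58, and 0.46 and 0.45 for Nolc1. Npm3 gave 0.08 and 0.96, and Fbl 0.11 and -0.52. Dkc1 was at 523 CPM in sarcoma and 574 CPM in marrow of mouse 1267, but at 816 CPM in sarcoma and 121 CPM in marrow of mouse 2721, a difference of 2.75 log2 units. With the mouse as a block in edgeR, these 2 mice alone called 0 of the 8 genes.

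Sarcoma libraries of the same mouse were alike in mouse 2721 and unlike in mouse 948. Npm1 had 422 and 435 CPM in libraries 1 and 2 of mouse 2721, and Dkc1 had 755 and 690 CPM. The median absolute log2 difference was 0.07 over the 8 genes and 0.11 over 5353 genes. In mouse 948 the same medians were 1.72 and 1.04. Library 1 of mouse 948 had 1045 CPM of Npm1, 138 of Npm3, 76.6 of Fbl and 192 of Nop58, against 278, 15.8, 15.5 and 44.1 CPM in library 2. Ncl and Nolc1 ran the other way, at 305 and 28.0 CPM in library 1 and 540 and 45.6 CPM in library 2. Summed immature myeloid genes were 20514 CPM in library 1 and 2547 CPM in library 2. Markers of other cells differed as well, with neutrophil maturation genes at 126743 and 24148 CPM, skeletal muscle genes at 3039 and 17.0 CPM and adipocyte genes at 994 and 37.5 CPM in libraries 1 and 2. Library 1 was also the sarcoma library low in long transcripts, and the part of any of these in the differences was not tested.

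Across marrow, the 3 libraries low in long transcripts formed a set of their own, so correlations are given over the 6 others. All 28 pairs among the 8 genes had a positive Pearson correlation of log2 CPM there, from 0.25 to 0.94 with a median of 0.73, while 55.9% of all pairs among 5353 genes were positive, with a median of 0.11. Without marrow 1267 the median over 5 marrows was 0.80, again with 28 of 28 positive. With the 3 libraries included, 16 of 28 pairs were positive over 9 marrows (median 0.25), and 22 of 28 over all 14 samples (median 0.41). The closest pairs were Nop58 with Nolc1 and Ncl with Fbl (0.94 each), Ncl with Nolc1 (0.93) and Nop58 with Dkc1 (0.93). Against Npm1, Npm3 gave r = 0.89 (adjusted p = 0.0486 over 7 genes, exact permutation; Spearman rho 0.94, adjusted p = 0.117). Nolc1 gave r = 0.87 (adjusted p = 0.0486, exact permutation; rho 0.83, adjusted p = 0.204). Nop58 gave 0.85, Dkc1 0.73, Ncl 0.69, Fbl 0.59 and Nop56 0.59, and none passed the adjustment (adjusted p = 0.0875 to 0.231, exact permutation). Without marrow 949 and 2721, the 2 farthest from the median of Npm1, r was 0.78 for Npm3 and 0.30 for Nolc1, so the relation of Nolc1 rests on those samples. There r was 0.65 for Fbl, 0.56 for Nop58, 0.39 for Ncl, 0.21 for Nop56 and 0.12 for Dkc1. Marrow 949 was the lowest of the 6 for 7 of the 8 genes, and the 28 pairs were not computed without it.

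**Figure D4:**
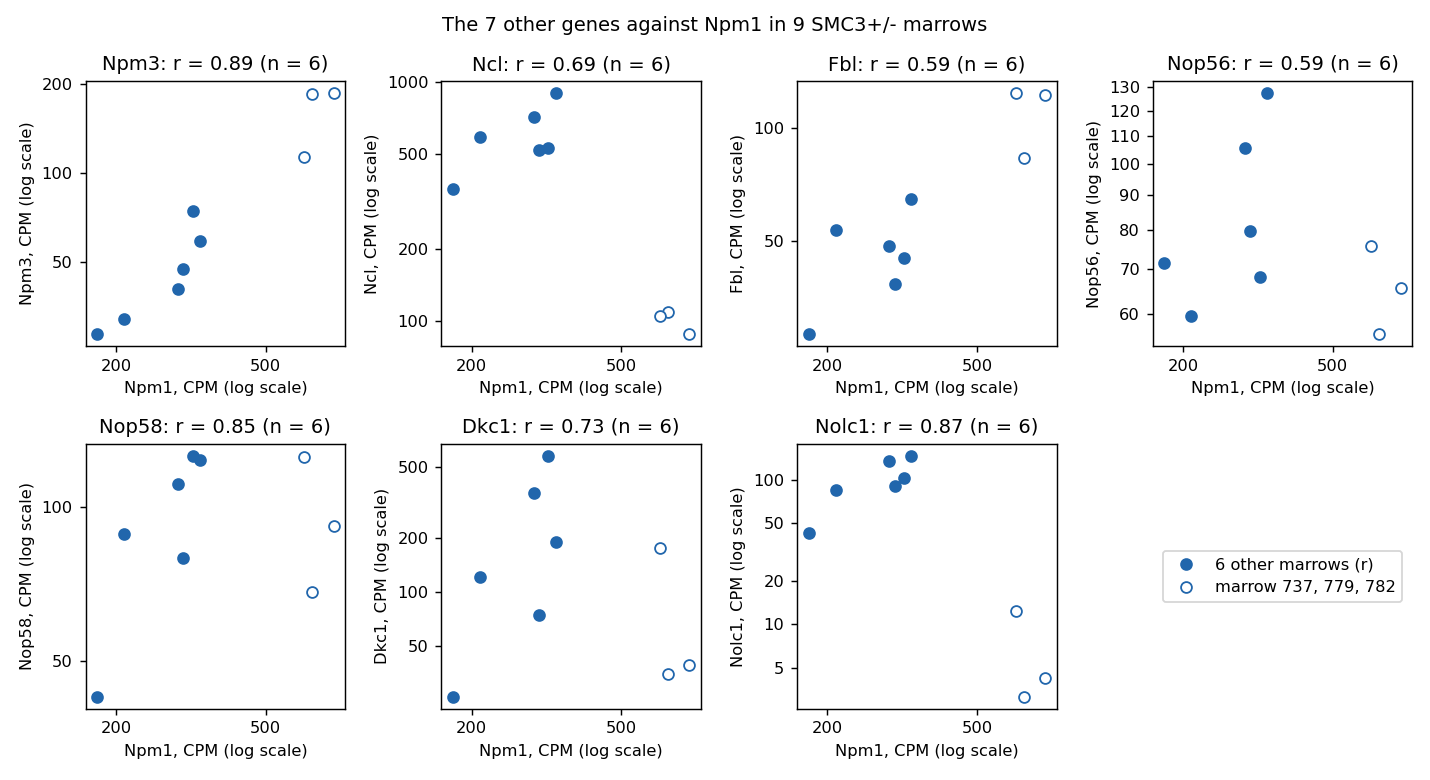
CPM of the 7 other genes against Npm1 (both axes log) in 9 SMC3+/- marrows, with marrow 737, 779 and 782 as open points and r over the 6 others above each panel. Npm3 rises with Npm1 over all points, whereas Ncl and Nolc1 are lowest in the 3 open points, where Npm1 is highest.

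Marrow 949 was the lowest of these 6 marrows for 7 of the 8 genes, the exception being Nop56. It had 179 CPM of Npm1, 356 of Ncl, 26.0 of Dkc1 and 42.6 of Nolc1. This marrow also held the largest sum of neutrophil maturation genes of the 9, 124536 CPM against 9492 to 111996 CPM in the 8 others. Its sum of immature myeloid genes was the smallest, 2630 CPM against 8848 to 39970 CPM. Its B cell and T cell sums were the largest, 448 and 80.0 CPM against at most 134 and 47.1 CPM. Erythroid genes summed to 606 CPM, against 10.8 to 1052.5 CPM in the 8 others. The 111996 CPM of neutrophil genes was in marrow 1267, the highest of the 6 for Npm3, Nop58 and Dkc1. Among the sarcomas, 1268_1270 was the lowest for 7 of the 8 genes, all but Nolc1, and had 391 CPM of immature myeloid genes, against 12548 to 32515 CPM in the 3 others. The part of cell composition in the levels of the 8 genes was not tested, and the share of all genes lowest in either sample was not computed.

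The genes most like Npm1 over the 14 samples encoded ribosomal proteins and a subunit of the RNA polymerase I machinery. Among 5352 genes of at least 5 log2 CPM, the 6 highest Pearson correlations were those of Taf1b (0.95), Rpl12 (0.94), Rpl4 (0.94), Rpl15 (0.94), Rpl36a (0.94) and Rpl31 (0.93). Taf1b encodes a part of the selectivity factor that brings RNA polymerase I to ribosomal DNA. These samples share 3 groups and the spread in long transcripts. Over the 9 samples left without sarcoma 1268_1270 and those holding a library low in long transcripts, the 6 values were 0.84 to 0.92. Of the members, Npm3 ranked 94th over the 14 samples, with r = 0.89, and the others ranked 820th or lower, from 0.70 for Fbl to -0.49 for Nolc1. Their values depended on the samples. Over the same 9 samples r was 0.81 for Nop58, 0.77 for Npm3, 0.76 for Ncl, 0.62 for Dkc1, 0.49 for Nop56, 0.34 for Nolc1 and 0.09 for Fbl. For Dkc1, a list over the 14 samples was read after its pattern was seen. The closest genes were Lyar (0.89), Mphosph10 (0.86), Hsp90aa1 (0.85), Nop58 (0.85) and Gnl3 (0.84), of which Lyar, Mphosph10 and Gnl3 also encode nucleolar proteins.

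In the wider pathway too, 0 genes were called between sarcoma and marrow in any of 8 lists on TMM scaling in edgeR. Median log2 fold changes were -0.29 for 5 box C/D partners, -0.31 for 5 H/ACA partners, -0.13 for 15 RNA polymerase I genes, -0.15 for 33 small subunit processome genes and -0.06 for 43 large subunit assembly genes. All 5 medians lay below the 0.07 of all genes tested. Over the 6149 tested genes that averaged at least 5 log2 CPM the median was -0.10, and the large subunit assembly genes lay above it. The signs of the 5 list medians were not settled. Blocking on the mouse, they were 0.13, -0.01, 0.12, 0.25 and 0.20, beside 0.22 for all genes. With pan-leukocyte scaling they were 1.46, 1.11, 1.67, 1.70 and 1.74, beside 2.18 for all genes, and 1 of 5, 1 of 5, 8 of 15, 22 of 33 and 25 of 43 genes of these lists were called higher, against 60.8% of all genes. Gar1, an H/ACA core protein, averaged 20.2 ± 9.94 CPM in sarcoma and 26.7 ± 9.59 CPM in marrow (SD, n = 4 and 9), a log2 fold change of -0.56 (adjusted p = 0.661, edgeR). Nhp2, another core protein, gave -0.31 (adjusted p = 0.954), while Dkc1, their catalytic partner, gave 1.13.

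Single pathway genes with the smallest p did not pass the adjustment. Eif6, whose protein keeps immature large subunits from joining, averaged 74.1 ± 21.7 CPM in sarcoma and 165 ± 99.3 CPM in marrow (SD, n = 4 and 9), a log2 fold change of -1.29 with an adjusted p = 0.184 in edgeR. Noc4l and Mphosph10, both of the small subunit processome, gave -0.80 and 0.76 (adjusted p = 0.301 and 0.532, edgeR). In the list for large subunits, Nol9 gave -0.74 and Gnl2 0.64. RNA polymerase I genes with the smallest p were Polr1e (-0.72), Polr1b (-0.55) and Cd3eap (0.69), and box C/D partners Nufip1 (-0.53), Nhp2l1 (-0.45) and Rrp9 (-0.29).

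Of the genes for known partners of nucleophosmin, Cdkn2a, whose products include the ARF protein that NPM1 holds in the nucleolus, varied widely between mice. A count per gene symbol does not single out the transcript of ARF. Cdkn2a had 72.6 CPM in sarcoma and 81.9 CPM in marrow of mouse 1267, and 1.82 to 17.3 CPM in the 3 other sarcomas. The 8 other marrows held 0.00 to 30.6 CPM, and the listed 0 was marrow 949. Its log2 fold change was 0.34 (adjusted p = 0.986, edgeR). Trp53 gave -0.12 and Mdm2, the ubiquitin ligase of p53, -0.40, with adjusted p = 0.972 and 0.771. The ribosomal protein gene Rpl23 gave 0.28, and Fbxw7, of a ubiquitin ligase that degrades MYC, 0.62.

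Myc, whose product drives ribosome biogenesis genes, averaged 104 ± 74.0 CPM in sarcoma and 94.1 ± 76.7 CPM in marrow (SD, n = 4 and 9), a log2 fold change of -0.01 (adjusted p = 0.999, edgeR). In the list of the wider MYC network, Max, Mlx and Mxd4 gave -0.30, -0.40 and 0.41. The median of the 15 proliferation genes was -0.61, with 15 of 15 negative and 0 called, and it was 0.13 with pan-leukocyte scaling, -0.17 with the mouse as a block and -0.29 without sarcoma 1268_1270. Mcm5, a replication helicase subunit, had the smallest p (log2 fold change -1.23, adjusted p = 0.419), followed by Rrm2 (-1.15) and Mcm2 (-0.87). Sarcoma 1268_1270 held 159 CPM of summed proliferation genes, against 1863 to 3018 CPM in the 3 others and 1841 to 3014 CPM in marrow, and its part in that median beyond the value without it was not tested.

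**Figure D5:**
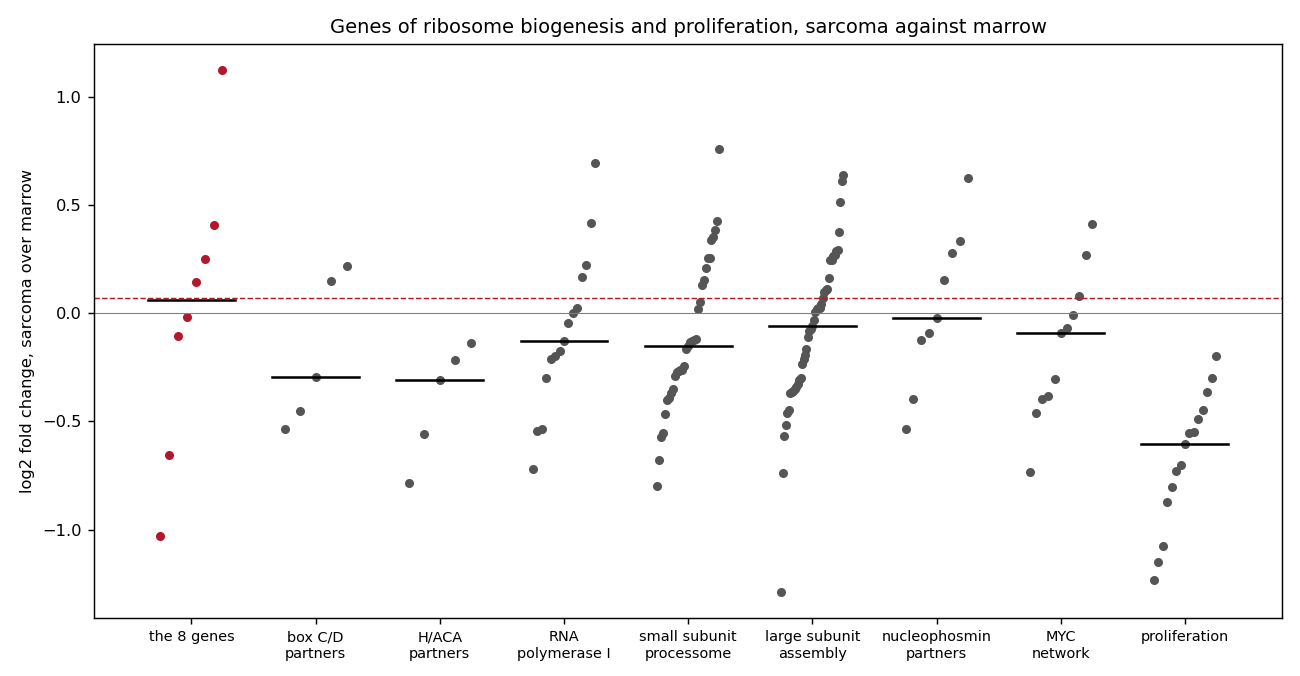
Log2 fold change of sarcoma over marrow for the 8 genes and for each gene tested in 8 lists. Points are genes, black lines list medians and the dashed line the median of all genes tested, 0.07. Fbl (-1.03) and Dkc1 (1.13) are the ends of the first column.

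Between SMC3+/- sarcomas and the SMC3 wild type sarcoma, 0 of the 8 genes were called, against 0% of 17762 genes tested in edgeR. At an unadjusted p under 0.05 there were 236 genes, and DESeq2 called 53 higher and 7 lower. The wild type arm was 1 sample, assumed to vary like the 4 mice. Npm1 had 701, 459, 151 and 483 CPM in the SMC3+/- sarcomas of mice 948, 1267, 1268_1270 and 2721, against 686 CPM in the SMC3 wild type sarcoma. That was lower in 3 of 4 mice, with a log2 fold change of -0.62 (95% interval -2.96 to 1.72, adjusted p = 1.00, edgeR). The exception was mouse 948, which sums library 1, low in long transcripts, at 1045 CPM and library 2 at 278 CPM. Dkc1 had 390, 523, 43.7 and 816 CPM, against 188 CPM, higher in 3 of 4 mice, with a log2 fold change of 1.23 (95% interval -2.40 to 4.86, adjusted p = 1.00, edgeR).

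The SMC3 wild type tumour lay within the SMC3+/- range for each of the 8 genes. For Npm1, at 686 CPM, this rested on the sarcoma of mouse 948, at 701 CPM, which holds a library low in long transcripts. The share of all genes for which it did so was not computed. Sarcoma 1268_1270 was the low end of that range for 7 of the 8 genes. The wild type tumour had 58.4 CPM of Npm3, 817 of Ncl, 39.4 of Fbl, 82.9 of Nop56, 134 of Nop58 and 66.9 of Nolc1. Log2 fold changes of these 6 were between -0.37 for Ncl and 0.33 for Nolc1, with intervals that reached past 1.80 in both directions. The median was -0.06 over the 8 genes, 0.33 over all genes tested and 0.14 over the 6433 of them that averaged at least 5 log2 CPM.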

How the data were processed

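RNA of 6 SMC3+/- sarcoma libraries, 1 SMC3 wild type sarcoma library and 9 SMC3+/- marrow libraries was sequenced. Per the labels' protocols, tumours went straight into Trizol, whereas marrow was crushed, filtered and freed of red cells first, so tissue and handling cannot be told apart. Poly(A) RNA was selected and spike-ins were added per the labels' protocols. The authors deposited their raw counts as 1 table of whole numbers for 23999 gene symbols in 16 columns, all matched to samples by name. Per the submitters' processing notes, STAR, DESeq and DESeq2 were used with build mm9, and no version, strand setting or annotation is stated.

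From the deposited counts, libraries of a mouse and tissue were summed to 14 samples, scaled by TMM, filtered with filterByExpr and compared with the quasi-likelihood test of edgeR 4.0.16 (R 4.3.3), adjusted by Benjamini-Hochberg over all genes tested, and called at an adjusted p under 0.05. All tests were two-sided. Log2 CPM used a prior count of 2, and the SE is the absolute log2 fold change over the square root of F. Mice are the replicates, and the labels tie mice 1267 and 2721 to both tissues. Their deviations from the tissue means correlated at 0.36 in mouse 1267 and 0.37 in mouse 2721. Ratios of summed counts (0.5 added) and correlations were tested by exact permutation in scipy 1.17.1. On simulated counts of 14109 genes in the sarcoma and marrow samples, 73 genes were called, 4 of them falsely. Of 100 genes given a 4-fold change 17 were recovered, and of 100 given a 16-fold change 52. Counts carry no molecular identifiers.

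The members and gene lists were chosen with earlier results of these data known. Named genes are the 8 members, up to 3 genes per pathway list with the smallest p between sarcoma and marrow, Myc, Mdm2, Cdkn2a, Trp53, Npm2 and the 6 genes most correlated with Npm1. Transcript and coding lengths came from GENCODE on a later build than mm9, matched by symbol for 94.9% of symbols, as the longest principal transcript, and promoters from RefSeq. Alternatives were DESeq2 1.42.0, limma-voom (limma 3.58.1), RLE and pan-leukocyte scaling, no count filter, sarcoma libraries as samples, the mouse as a block, each sample left out, and libraries low in long transcripts left out. A transcript length offset, leaving out sarcoma 1268_1270 or marrow 1267 as well, leaving out both samples of a mouse, and permuting ratios within mice were chosen after seeing the data.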

Additional observations from a re-analysis of the deposited data

How the results depend on the processing

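The 8 genes had 34 to 37844 counts per library, so counting error was small beside the spread of 4 sarcoma mice and 9 marrows, and tissue and handling cannot be told apart. Between sarcoma and marrow, 0 of the 8 genes were called in the comparison as reported or with DESeq2, limma-voom, RLE size factors, no count filter, sarcoma libraries as samples, a transcript length offset, the mouse as a block, libraries low in long transcripts left out, and each sample left out. Where a sign turned, the cause was not tested.

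Pan-leukocyte scaling called 3 of the 8 genes, Ncl (2.22), Nop58 (1.47) and Dkc1 (1.98), and 8956 genes (60.8% of those tested) higher, and gave 1.31 for Npm1, 0.56 for Npm3, 0.27 for Fbl and 1.28 for Nop56. No fit with this scaling left out sarcoma 1268_1270, the sample poor in leukocyte genes. Genes called higher, 662 in the comparison as reported, numbered 1355 with no count filter, 300 without libraries low in long transcripts, 165 without marrow 1267 as well and 62 with sarcoma 1268_1270 left out in its place. Genes called lower, 8 as reported, numbered 83 with DESeq2, 20 with limma-voom, 13 with no count filter, 17 with sarcoma libraries as samples, 13 with a length offset, 3 without libraries low in long transcripts, 1 without marrow 1267 as well and 0 with sarcoma 1268_1270 left out in its place. In that last fit, in edgeR, 1115 genes had an unadjusted p under 0.05. Blocking on the mouse gave 107 genes higher and 23 lower over all samples, and 81 higher and 33 lower in mice 1267 and 2721 alone. Over all samples too, only mice 1267 and 2721 inform that tissue difference.

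Apart from pan-leukocyte scaling, the sign of 5 small fold changes turned in some of these fits. Npm1 gave 0.17 with sarcoma libraries as samples, 0.14 with a length offset, 0.18 without libraries low in long transcripts and 0.42 without sarcoma 1268_1270 as well. Under the block by mouse, Npm1 over all samples gave 0.55, Npm3 0.21 and Nop56 0.55, and in mice 1267 and 2721 alone they gave 0.59, 0.25 and 0.59. Both fits take the tissue difference from mice 1267 and 2721, so they are not separate checks. Nop56 gave 0.051 with sarcoma libraries as samples. When marrow 1267 was left out with the libraries low in long transcripts, Npm1 gave 0.25 and Nolc1 -0.32. Without libraries low in long transcripts Nop58 gave -0.0039 and Nolc1 -0.35, and without sarcoma 1268_1270 as well Nolc1 gave -0.15.

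Against the SMC3 wild type sarcoma, 0 of the 8 genes were called in any fit. DESeq2 called 53 genes higher and 7 lower, and 1 gene was lower when sarcoma 1268_1270 was left out together with the libraries low in long transcripts. Npm3 turned to -0.036 with DESeq2 and with RLE size factors, -0.22 with limma-voom, -0.59 without libraries low in long transcripts, -0.31 without sarcoma 1268_1270 as well and -0.26 with a length offset. Pan-leukocyte scaling, which put the median of all genes at 1.80, gave 0.72 for Ncl, 0.45 for Fbl, 0.61 for Nop56 and 0.39 for Nop58. Nop56 gave 0.019 with sarcoma libraries as samples.

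With each sample left out in turn, genes called higher in sarcoma than in marrow numbered 170 to 762 and genes called lower 0 to 16, and the 170 came without sarcoma 1268_1270. The fold change of sarcoma over marrow ranged from -0.22 to 0.26 for Npm1, -0.41 to 0.16 for Nop56 and -0.21 to 0.53 for Nolc1. Against the SMC3 wild type sarcoma 0 to 1 genes were called lower, with ranges of -0.33 to 0.20 for Npm3, -0.44 to 0.038 for Fbl, -0.37 to 0.10 for Nop56, -0.33 to 0.080 for Nop58 and -0.042 to 0.44 for Nolc1. When both samples of mouse 1267 or of mouse 2721 were left out, 2 genes were called lower each time, and without mouse 1267 Npm1 gave 0.033 and Nolc1 -0.017. Ratio differences ranged from 0.43 to 0.67 for Npm1 to Npm3, -1.28 to -0.95 for Fbl to Nop58 and -0.034 to 1.15 for Dkc1 to Nolc1.

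Without libraries low in long transcripts, the ratio difference of Npm1 to Npm3 was 0.65 (0.63 without sarcoma 1268_1270 as well, 0.55 without marrow 1267 as well), that of Npm1 to Ncl 0.094 (0.20 and 0.17), and that of Fbl to Nop58 lost its call without either further sample (-0.86 and -0.88), where the smallest possible p is too large to pass the adjustment alone. Permuting with the mouse as a block changed no call of a ratio, and Npm1 to Npm3 and Fbl to Nop58 had the smallest possible p there. Over all 9 marrows, which fall in 2 sets, Npm1 correlated negatively with Ncl, Nop56, Dkc1 and Nolc1. In the 6 marrows outside the set low in long transcripts these values were 0.69, 0.59, 0.73 and 0.87, and that of Fbl was 0.59.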
